A study of Mus musculus with 14 samples.

Results

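Forelimb buds of mouse embryos that lack Smad4 in the limb mesenchyme were compared between embryonic day 10.5 (E10.5, 35 somites) and E10.0 (30 somites). Libraries entered by genotype and stage alone: the 4 mutant libraries of each stage, which together are 8 of the 14 libraries collected. In the labels the E10.0 mutants are replicates 1, 3, 4 and 5, the E10.5 mutants are replicates 1, 2, 4 and 5, and values below are listed in that order (wild types as 1, 2 and 3). Of 23284 gene symbols counted, 12594 reached 1 CPM (the count of a gene scaled to the reads on genes of its library) in at least 3 of the 8 mutant libraries and were tested. The CPM levels printed below were also scaled by edgeR's TMM factors, computed separately for mutants and for wild types. Mutants had the genotype Smad4Δ/Δc PrxCreT/+, from floxed females and males that carried 1 deleted Smad4 allele and the Cre, so 1 allele was deleted in the whole embryo. The other was deleted only where the Prrx1 promoter had driven Cre, which within the limb bud is the mesenchyme. Ectoderm, endothelium, blood, nerve and immigrating muscle cells of these buds therefore keep the floxed allele. The wild types (Smad4+/+ PrxCreT/+, 3 libraries a stage) carried the same Cre, and all embryos were of the NMRI strain. Each library held both forelimb buds of 1 embryo.

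SMAD4 is the partner that receptor-activated SMAD proteins of the BMP and TGFβ pathways need to regulate their target genes. The forelimb bud is a pouch of mesenchyme under ectoderm, patterned by retinoic acid at its proximal side, by FGFs of the apical ectodermal ridge at its tip and by SHH from the posterior margin. Between the stages compared the bud elongates, the distal HoxA and HoxD genes come on in turn, the first cartilage condensations are laid down, and muscle precursors, vessels, nerves and macrophages enter it from outside. In bulk tissue, fewer cells of a type and less RNA per cell cannot be told apart.

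The mutant libraries held 34066930 to 61691258 reads on genes. Smad4, whose count spans the whole gene and so includes transcript outside the deleted part, stood at 36.6, 43.8, 35.9 and 35.1 CPM in the E10.0 buds and 38.7, 36.9, 31.6 and 34.05 CPM in the E10.5 buds in mutants. These levels did not pass the test between stages (log2 change -0.101 ± 0.0974 SE, adjusted p = 0.632) and were all below the 6 wild-type levels, 165, 147 and 158 CPM in the E10.0 buds and 164, 160.4 and 162 CPM in the E10.5 buds. Tbx5 and Prrx1, which define forelimb mesenchyme, were abundant in every mutant library, at 73.1 to 138 CPM and 511 to 718 CPM. Replicates 4 and 5 stood apart from replicates 1 to 3 at both stages: the ribosomal RNA precursor Rn45s took 1.72 to 8.05% of their reads on genes against 0.151 to 0.456%, and the second principal component, with 29.6% of the variance, separated them. Both stages hold 2 libraries of each kind, and the first component, with 45.3% of the variance, separated the stages. E10.5 replicate 2 held 364 reads of Afp, an alpha-fetoprotein gene of liver and yolk sac, where the other 7 mutant libraries held 0 to 23. Of 8 liver and yolk sac markers 1 was tested and was not called, but it was called lower without E10.5 replicate 2, with the replicate number as a block and in replicates 4 and 5 alone. Without the filter on low counts 3 of the list were called higher.

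Between E10.0 and E10.5, 2157 genes changed in the mutants by edgeR's exact test (Benjamini-Hochberg false discovery rate up to 0.1, and a change of 1.2-fold or more), which is 17.1% of those tested. Of these, 1223 were higher at E10.5 (9.71%) and 934 were lower (7.42%). The counts called in each gene list below are to be read beside these shares of all genes. Most changes were small: 1384 called genes moved by less than 1.5-fold, 172 rose and 74 fell at least 2-fold, and 29 rose and 12 fell at least 4-fold. The 4 libraries of one stage lay wholly above the 4 of the other for 1681 called genes and for 20.1% of all genes tested. Adjusted p values below come from this test unless another is named, and each log2 change carries the standard error (SE) of the difference between the stage means of log2 CPM.

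The 12 genes that rose with the smallest p values had varied roles. They were taken only from genes whose stages did not overlap, so their separation is no finding. Wfikkn2, a secreted binding protein of GDF8 and GDF11, had 0.865, 0.676, 1.09 and 1.31 CPM in the E10.0 buds and 8.65, 9.11, 10.7 and 8.01 CPM in the E10.5 buds. The rise was 9.4002-fold (log2 change 3.23 ± 0.22 SE, adjusted p = 9.61e-52). Hoxa13, the gene that marks the future hand plate, had 0.0326, 0.0495, 0.156 and 0.2102 CPM in the E10.0 buds and 2.45, 2.25, 3.42 and 2.62 CPM in the E10.5 buds (log2 change 4.69 ± 0.45 SE, adjusted p = 1.54e-41), from 2, 3, 6 and 9 reads to 145, 121, 126 and 84 reads. Osr2, an odd-skipped transcription factor, had 4.33, 2.64, 7.01 and 6.003 CPM in the E10.0 buds and 29.6, 30.3, 36.7 and 36.4 CPM in the E10.5 buds. That is 6.69-fold higher (log2 change 2.74 ± 0.32 SE, adjusted p = 1.02e-31). In each of these 3 genes the highest E10.0 library lay below the lowest E10.5 library. The other 9 of the 12 were Col9a1, a chain of cartilage collagen IX (1.29), Gabrp, a GABA receptor subunit (3.57), Mab21l2, a mab-21 family developmental gene (2.399), Adamtsl2, a matrix glycoprotein (2.26), Synpo, an actin-binding protein (1.22), Pax1, a paired-box factor of sclerotome and shoulder girdle (2.802), Islr, an immunoglobulin-domain protein of mesenchymal cells (1.61), Cpt1a, which admits fatty acids to mitochondria (1.45), and Lum, which encodes the small matrix proteoglycan lumican (2.21), each value a log2 change and the stages apart in all 9.

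The 12 genes that fell with the smallest p values, again taken only from genes whose stages did not overlap, were likewise of several kinds. Lin28a, which encodes an RNA-binding protein that blocks maturation of the microRNA let-7, had 189, 234, 167 and 145 CPM in the E10.0 buds and 54.8, 54.7, 45.6 and 51.3 CPM in the E10.5 buds. The fall was 3.56-fold (log2 change -1.83 ± 0.16 SE, adjusted p = 1.24e-40). Nr6a1, an orphan nuclear receptor, had 47.2, 61.5, 44.3 and 42.3 CPM in the E10.0 buds and 16.5, 14.4, 12.6 and 13.7 CPM in the E10.5 buds. That is 3.403-fold lower (log2 change -1.77 ± 0.14 SE, adjusted p = 3.91e-36). Prtg, which encodes the cell surface protein protogenin, had 115, 146, 113 and 112 CPM in the E10.0 buds and 58.2, 54.98, 47.3 and 49.1 CPM in the E10.5 buds. The fall was 2.31-fold (log2 change -1.21 ± 0.12 SE, adjusted p = 7.54e-25). All 4 libraries of E10.0 were above all 4 of E10.5 in these genes, and E10.0 replicate 3 was the highest for Prtg. Aldh1a2, the main enzyme of retinoic acid synthesis in the embryo, had 18.7, 32.8, 30.2 and 15.3 CPM in the E10.0 buds and 5.103, 5.08, 4.15 and 3.12 CPM in the E10.5 buds (log2 change -2.47 ± 0.31 SE, adjusted p = 1.69e-23), and the stages did not overlap. The remaining genes were Rspo4, a WNT amplifier (-1.38), Hoxb8 (-1.48), Scn4b, a sodium channel subunit (-1.46), Upk3b, a uroplakin found in mesothelium (-4.12), Crb2, an apical polarity protein (-1.78), Crym, a thyroid hormone binding protein (-1.14), Plcg2, a phospholipase (-1.19), and Cyp1b1, a cytochrome P450 (-0.92).

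**Figure D1:**
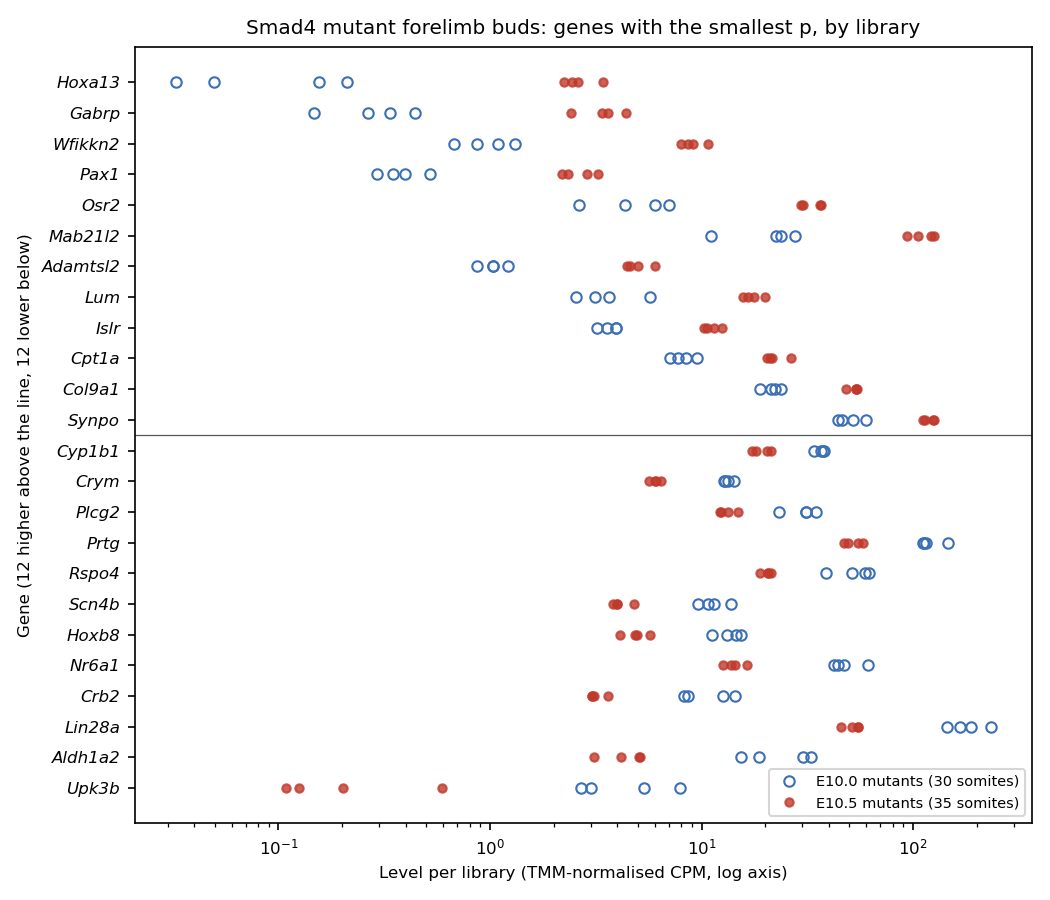
CPM on a log axis in each of the 8 mutant libraries for the 12 genes that rose and the 12 that fell with the smallest p values, with E10.0 and E10.5 libraries as open blue circles and filled red circles, one per library. Only genes whose stages did not overlap were eligible. By this selection no gene's open and filled circles overlap in range, as for Hoxa13, with 0.0326, 0.0495, 0.156 and 0.2102 CPM against 2.45, 2.25, 3.42 and 2.62 CPM.

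Hox genes split by their place in the clusters. In a limb bud the 3' genes act first and proximally and the 5' genes act later and distally. All 6 tested genes of paralog groups 11 to 13 rose, with a median log2 change of 0.88, and 11 of 20 tested genes of groups 2 to 8 fell, with a median of -0.42, against a median over all genes tested of -2.19e-04. Groups 9 and 10 were divided, with 3 of 6 lower and 1 higher. In the list of 3' Hox genes, of which 20 were tested, leaving out E10.0 replicate 3 lowered the count that fell from 11 to 7. Wild types had 5 of the 6 distal genes higher and 14 of the 20 genes of groups 2 to 8 lower, beside 8.08% of genes higher and 8.06% lower in the wild-type comparison.

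Among the distal genes, Hoxd12 had 23.1, 10.7, 18.1 and 19.1 CPM in the E10.0 buds and 58.6, 54.5, 57.6 and 54.8 CPM in the E10.5 buds. That is 3.18-fold higher (log2 change 1.67 ± 0.24 SE, adjusted p = 3.08e-20). Hoxd13, needed for digits, had 69.3, 45.5, 52.3 and 61.2 CPM in the E10.0 buds and 109, 89.3, 78.7 and 86.2 CPM in the E10.5 buds (log2 change 0.67 ± 0.17 SE, adjusted p = 1.49e-05), and Hoxd11 had 15.2, 10.9, 17.2 and 17.1 CPM in the E10.0 buds and 23.4, 21.8, 27.5 and 26.2 CPM in the E10.5 buds. The rise was 1.64-fold (log2 change 0.71 ± 0.17 SE, adjusted p = 3.47e-05). Stages did not overlap for these 3 HoxD genes. Hoxc13, at low level, rose from 0.637 ± 0.132 to 1.34 ± 0.129 CPM (mean ± SD, n = 4; log2 change 1.05, adjusted p = 1.74e-04). Hoxa11 had the smallest change of the distal group, with 76.7, 62.96, 63.3 and 65.9 CPM in the E10.0 buds and 85.2, 83.1, 77.4 and 80.9 CPM in the E10.5 buds. That is 1.21-fold higher (log2 change 0.28 ± 0.0729 SE, adjusted p = 0.0277). Its call was lost without E10.0 replicate 3 (adjusted p = 0.135), and its change dropped under 1.2-fold without E10.0 replicate 4 (0.25), without E10.5 replicate 1 (0.26) and in the fit blocked by replicate number (0.24). The antisense transcript Hoxa11as, which overlaps Hoxa11 and was counted without strand so that the 2 cannot be fully told apart, went from 20.2 ± 1.9003 to 34.7 ± 2.81 CPM (log2 change 0.79, adjusted p = 2.17e-10).

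In the proximal direction, Hoxb9 fell most of groups 2 to 10, with 18.6, 26.5, 14.3 and 10.1 CPM in the E10.0 buds and 6.08, 6.996, 3.61 and 4.21 CPM in the E10.5 buds. The fall was 3.32-fold (log2 change -1.73 ± 0.37 SE, adjusted p = 2.27e-09). Hoxb8 had 11.2, 15.4, 14.5 and 13.2 CPM in the E10.0 buds and 4.12, 4.94, 4.83 and 5.71 CPM in the E10.5 buds. That is 2.78-fold lower (log2 change -1.48 ± 0.14 SE, adjusted p = 3.29e-19). In both genes the stages did not overlap. Hoxb6 and Hoxb7 fell by 0.91 and 0.90 on the log2 scale, whereas Hoxa5, whose range ran across both stages, did not pass the test (log2 change -0.11 ± 0.0694 SE, adjusted p = 0.587).

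**Figure D2:**
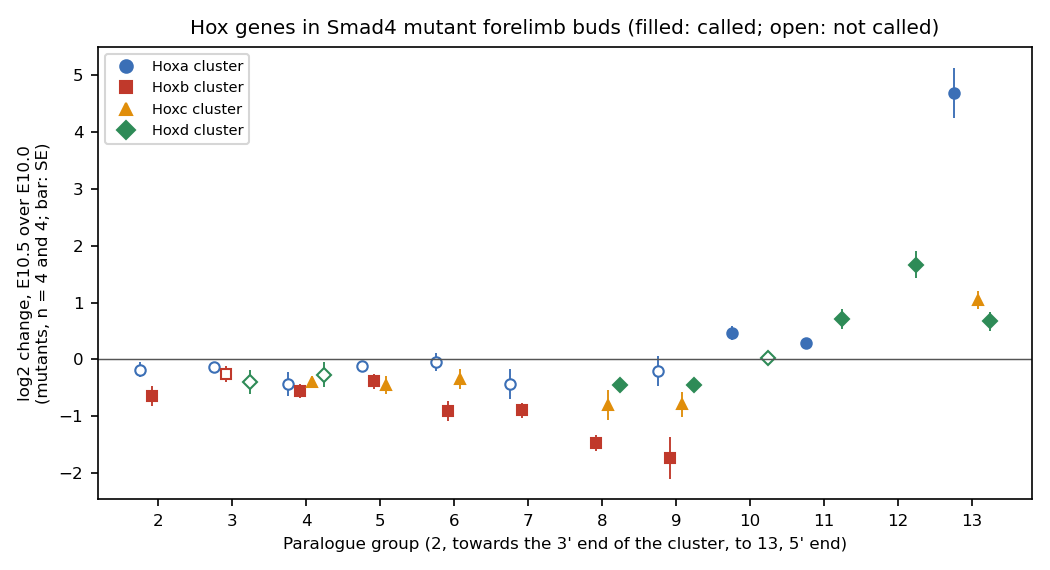
Log2 change from E10.0 to E10.5 in mutants (4 libraries a stage, bars for the SE) for each tested Hox gene of groups 2 to 13 against its paralog group, with the 4 clusters in separate colours and markers, filled where the gene was called. Groups 2 to 8 lie between -1.48 and -0.0401, and groups 11 to 13 lie between 0.28 and 4.69, all filled.

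Many genes that keep cells in an early state fell. This heterochronic list joins LIN28 proteins with let-7 targets and other genes known to decline as embryonic tissue ages. Of 18 tested, 9 were lower at E10.5 (50.0% called in either direction, against 17.1% of all genes) and the median log2 change was -0.30. As with all lists here, members were chosen with earlier results of these data known, so the share is only a description. Lin28b, the paralog of Lin28a, had 266, 268, 228 and 220.4 CPM in the E10.0 buds and 168, 149.5, 135 and 141 CPM in the E10.5 buds. The fall was 1.65-fold (log2 change -0.73 ± 0.0998 SE, adjusted p = 3.65e-10). Every E10.5 library was below every E10.0 library for Lin28b and for 9 other members of the list. Of all genes tested, 20.1% had the stages apart in one direction or the other. Trim71, an early growth regulator, changed by -0.66, Mycn, a MYC-family factor, by -0.67 and the stem cell factor Sall4 by -0.57 on the log2 scale. Hmga2, a chromatin protein and a known let-7 target, did not pass the test, with 1644, 1529.6, 1451 and 1344 CPM in the E10.0 buds and 1730.3, 1718, 1522 and 1429 CPM in the E10.5 buds (log2 change 0.10 ± 0.0913 SE, adjusted p = 0.602). Wild types had 8 of the 18 lower and 1 higher, with a median of -0.30.

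Mature let-7 microRNAs share one seed, which pairs with the 7 letters CTACCTC in an mRNA. Small RNAs were not measured here, so the sequences below describe the transcripts, not their regulation. Mature mouse let-7 family members from RefSeq (GRCm38.p6) are shown first because they define the site, with bases 2 to 8, the seed shared by all 9 members matched, in capitals.
mmu-let-7a-5p: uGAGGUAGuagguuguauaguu
mmu-let-7d-5p: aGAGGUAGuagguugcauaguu
mmu-miR-98-5p: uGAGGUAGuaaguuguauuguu
The sites that follow lie downstream of the stop codon in genes that fell, read from the mm9 genome on the strand of the gene, with the seed match in capitals. They lie at chr4:133561102-133561126 and chr4:133560464-133560488 (minus strand) for Lin28a, at chr10:45100826-45100850 (minus) for Lin28b, at chr2:38582967-38582991 and chr2:38579203-38579227 (minus) for Nr6a1 and at chr9:72760365-72760389 (plus) for Prtg.
Lin28a site 1: gcacagcctgttgaaCTACCTCatt
Lin28a site 2: gagatcgccacaaacCTACCTCact
Lin28b site 1: acccgggcgggaagtCTACCTCatg
Nr6a1 site 2: tgttgacaaagacaaCTACCTCaat
Nr6a1 site 6: aagtgcatcatgaacCTACCTCagg
Prtg site 1: ccctctgctgaatagCTACCTCagt
Nr6a1 held 8 such matches, Lin28b 4, and Lin28a, Prtg and Trim71 2 each. The sites printed above are only a part of these, and each of them is followed by an A. Others, such as Lin28b sites 2 to 4 and Prtg site 2, are followed by another base. Of the 9 heterochronic genes that were lower at E10.5, 7 held a match, and so did 7 of the 9 that were not called (77.8% of each), while 11.04% of the 11976 tested genes with an annotated 3' end held one. That last share is not matched for length. Among genes with a 3' end within 20% of a member's own length, it ran from 4.21% for E2f5 to 48.1% for Tet1. Hmga2, which did not pass the test, held 4 matches, so within the list a match did not go with the call. The list was chosen in part as let-7 targets, and its share is therefore no finding.

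Of the SHH pathway, 3 of 16 tested genes were higher and 1 was lower (9.71% and 7.42% of all genes), with 3 lower without E10.0 replicate 1 and 2 without E10.5 replicate 4. Shh itself, the posterior ligand, had 4.67, 3.59, 3.48 and 1.96 CPM in the E10.0 buds and 11.2, 7.37, 8.43 and 7.203 CPM in the E10.5 buds. That is 2.49-fold higher (log2 change 1.31 ± 0.298 SE, adjusted p = 4.54e-07). Gli3, which encodes the main repressor of the pathway in limb buds, had 299.7, 346, 353 and 400.3 CPM in the E10.0 buds and 281, 249.8, 249.8 and 248 CPM in the E10.5 buds. The fall was 1.36-fold (log2 change -0.44 ± 0.09596 SE, adjusted p = 3.39e-04). Shh was higher in every E10.5 library and Gli3 lower in every one. The direct readouts Gli1 and Ptch1 did not pass the test, Gli1 with 24.1, 22.999, 37.4 and 37.1 CPM in the E10.0 buds and 29.7, 31.7, 36.8 and 33.6 CPM in the E10.5 buds (log2 change 0.12 ± 0.202 SE, adjusted p = 0.715) and Ptch1 with a log2 change of 0.07996 (adjusted p = 0.703). In replicates 1 to 3 alone, Gli1 had a log2 change of 0.38 (adjusted p = 0.0229), and in replicates 4 and 5 it had -0.0853. Boc, a coreceptor of hedgehog ligands, rose from 28.2 ± 6.77 to 40.9 ± 4.46 CPM (log2 change 0.54, adjusted p = 0.00426). Hhip, a hedgehog-binding antagonist, had log2 change 0.47 ± 0.17 SE, adjusted p = 0.03602, a call that was lost without E10.0 replicate 3 (0.183), E10.5 replicate 1 (0.153) or E10.5 replicate 2 (0.115), that did not hold with the replicate number as a block (0.162) and that replicates 4 and 5 alone did not give (log2 change 0.0935, adjusted p = 0.755).

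FGF pathway genes were divided, with 5 of 22 higher and 5 lower, and the higher count was 3 without E10.5 replicate 2. Fgf9 had 1.88, 1.698, 1.12 and 1.28 CPM in the E10.0 buds and 4.65, 4.18, 3.96 and 3.99 CPM in the E10.5 buds. That is 2.77-fold higher (log2 change 1.47 ± 0.18 SE, adjusted p = 4.25e-12). Fgf18 had 0.637, 0.462, 0.701 and 0.958 CPM in the E10.0 buds and 2.23, 2.39, 3.44 and 2.74 CPM in the E10.5 buds. The rise was 3.95-fold (log2 change 1.98 ± 0.24 SE, adjusted p = 1.35e-13). These 2 ligands were higher in every E10.5 library. Fgf4, a ridge ligand, had 2.17, 1.204, 0.597 and 0.584 CPM in the E10.0 buds and 2.69, 3.32, 1.76 and 1.96 CPM in the E10.5 buds (log2 change 1.08 ± 0.48 SE, adjusted p = 0.0178) and overlapped between stages, and without E10.5 replicate 2 its adjusted p was 0.108. Fgf8, the ridge ligand present along the whole margin, had 17.2, 17.95, 17.8 and 14.3 CPM in the E10.0 buds and 8.91, 13.6, 15.2 and 16.3 CPM in the E10.5 buds and did not pass the test (log2 change -0.32 ± 0.21 SE, adjusted p = 0.207), although replicates 1 to 3 alone gave a log2 change of -0.64 (adjusted p = 0.0156). Fgf10, the mesenchymal ligand that signals to the ridge, fell from 59.2 ± 3.904 to 45.7 ± 1.66 CPM (log2 change -0.37, adjusted p = 0.00111), and Dusp5, an ERK phosphatase, fell from 2.93 ± 0.621 to 1.21 ± 0.184 CPM (log2 change -1.26, adjusted p = 4.17e-07).

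WNT pathway genes were called at 44.7% of 38 tested, 8 higher and 9 lower. Wnt7a, the dorsal ectoderm ligand, had 13.97, 16.9, 13.4 and 10.6 CPM in the E10.0 buds and 4.93, 7.74, 7.59 and 7.83 CPM in the E10.5 buds. That is 1.96-fold lower (log2 change -0.97 ± 0.21 SE, adjusted p = 2.30e-06). Wnt2 had 7.07, 9.45, 7.401 and 3.504 CPM in the E10.0 buds and 0.541, 2.86, 0.705 and 0.374 CPM in the E10.5 buds (log2 change -2.596 ± 0.69 SE, adjusted p = 3.08e-06), and the only E10.5 library above 1 CPM was replicate 2, the one with Afp reads. Without that library the log2 change of Wnt2 was -3.65. Wnt5a, the distal ligand for elongation, had 144, 109, 116 and 105 CPM in the E10.0 buds and 177, 173, 152 and 136 CPM in the E10.5 buds (log2 change 0.43 ± 0.13 SE, adjusted p = 0.00333), with an overlap of the stages. Among secreted amplifiers, Rspo3 rose from 10.5 ± 4.37 to 22.8 ± 1.5004 CPM (log2 change 1.12, adjusted p = 1.01e-04) and Rspo4 fell from 52.9 ± 10.3 to 20.3 ± 1.06 CPM (log2 change -1.38, adjusted p = 2.56e-22). Axin2, a general readout of WNT signalling, did not pass the test (log2 change -0.0968 ± 0.0765 SE, adjusted p = 0.593).

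In the BMP pathway, whose SMADs need SMAD4, 7 of 31 tested genes were higher and 9 were lower, and the lower count was 5 without E10.0 replicate 3 or E10.0 replicate 4. Secreted antagonists and modulators made up most of those that rose. Sostdc1, a BMP and WNT antagonist, had 1.99, 2.23, 1.69 and 1.799 CPM in the E10.0 buds and 3.06, 6.18, 5.56 and 5.18 CPM in the E10.5 buds. The rise was 2.57-fold (log2 change 1.36 ± 0.24 SE, adjusted p = 5.81e-08). Chrdl1, a chordin-like antagonist, had 16.2, 8.06, 11.8 and 15.4 CPM in the E10.0 buds and 28.5, 27.4, 23.2 and 25.9 CPM in the E10.5 buds. That is 2.04-fold higher (log2 change 1.03 ± 0.24 SE, adjusted p = 2.76e-07). Smoc2, a matricellular modulator, had 6.27, 5.69, 6.31 and 4.37 CPM in the E10.0 buds and 12.4, 13.1, 13.3 and 13.7 CPM in the E10.5 buds. The rise was 2.31-fold (log2 change 1.21 ± 0.13 SE, adjusted p = 1.10e-14). For these 3 genes every E10.5 library was above every E10.0 library. Grem1, the antagonist that protects the ridge, went from 9.48 ± 1.09 to 12.8 ± 1.09 CPM (log2 change 0.44, adjusted p = 0.01299), a change that replicates 4 and 5 alone did not give (0.24, adjusted p = 0.304).

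Of the ligands, Bmp2 had 3.95, 3.396, 3.19 and 2.83 CPM in the E10.0 buds and 5.46, 5.196, 5.23 and 5.27 CPM in the E10.5 buds (log2 change 0.66 ± 0.10 SE, adjusted p = 5.74e-04), with the stages apart, and replicates 1 to 3 alone gave 0.54 (adjusted p = 0.104). Bmp4 and Bmp7 were near their E10.0 levels, with log2 changes of 0.0234 (adjusted p = 0.934) and 0.0433 (adjusted p = 0.908). Several genes that commonly respond to BMP fell. Smad9, a BMP-activated SMAD, had 1.08, 1.71, 1.61 and 1.12 CPM in the E10.0 buds and 0.304, 0.5196, 0.407 and 0.405 CPM in the E10.5 buds. That is 3.37-fold lower (log2 change -1.75 ± 0.22 SE, adjusted p = 1.96e-08). Msx2, a homeobox target of BMP, had 18.3, 27.5, 19.6 and 14.8 CPM in the E10.0 buds and 9.26, 12.2, 13.8 and 12.8 CPM in the E10.5 buds. The fall was 1.67-fold (log2 change -0.74 ± 0.22 SE, adjusted p = 5.38e-04). Neither gene overlapped between stages. Msx1, the sister gene, fell by 0.80 on the log2 scale (adjusted p = 0.0324), a call lost without E10.0 replicate 4 (0.165), E10.0 replicate 5 (0.101), E10.5 replicate 1 (0.140) or E10.5 replicate 2 (0.156). Id1 did not pass the test (log2 change -0.29 ± 0.15 SE, adjusted p = 0.197). In the TGFβ list 3 of 18 were called (16.7%, near the 17.1% of all genes), all of them higher, among them Tgfb3 from 14.3 ± 3.39 to 23.5 ± 2.26 CPM (log2 change 0.72, adjusted p = 9.40e-05) and Mstn, which encodes myostatin, from 1.61 ± 0.394 to 3.16 ± 0.608 CPM (log2 change 0.99, adjusted p = 2.93e-04), and without E10.0 replicate 3 the count was 5.

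Among retinoic acid genes, 1 enzyme of breakdown rose and 1 of synthesis fell. Cyp26b1, the distal enzyme that degrades retinoic acid, had 105, 57.7, 103 and 115 CPM in the E10.0 buds and 214, 201, 226 and 201 CPM in the E10.5 buds (log2 change 1.15 ± 0.23 SE, adjusted p = 7.32e-11), opposite to Aldh1a2 above. Meis3, a homeobox gene, had 8.11, 12.8, 15.5 and 9.04 CPM in the E10.0 buds and 5.81, 5.14, 5.803 and 4.895 CPM in the E10.5 buds (log2 change -1.07 ± 0.22 SE, adjusted p = 1.62e-06), and Meis2, a marker of the proximal segment, had 164, 204, 191 and 177 CPM in the E10.0 buds and 137, 143, 139.5 and 149 CPM in the E10.5 buds. That is 1.29-fold lower (log2 change -0.37 ± 0.0732 SE, adjusted p = 0.001604). The stages did not overlap for any of the 3. Meis1, the related gene, did not pass the test (log2 change -0.0916 ± 0.0606 SE, adjusted p = 0.589). In all, 3 of 22 genes of this list were higher, 5 were lower and 14 were not called, beside 9.71% higher and 7.42% lower of all genes. In wild types Cyp26b1 rose (log2 change 0.91), and so did Aldh1a2 (log2 change 0.999, adjusted p = 7.94e-05).

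Genes of anterior identity and the T-box family were called at 66.7% of 18 tested, 8 higher and 4 lower. Tbx4, best known from the hindlimb, had 4.13, 2.11, 4.47 and 4.27 CPM in the E10.0 buds and 11.7, 11.8, 15.3 and 12.8 CPM in the E10.5 buds. The rise was 3.46-fold (log2 change 1.79 ± 0.27 SE, adjusted p = 7.60e-16). Tbx18 had 75.1, 51.6, 58.3 and 73.1 CPM in the E10.0 buds and 134, 126, 119 and 115 CPM in the E10.5 buds. That is 1.91-fold higher (log2 change 0.94 ± 0.14 SE, adjusted p = 4.15e-13). In both the stages were apart, and E10.0 replicate 3 was the lowest for Tbx4. Alx1 fell from 19.6 ± 3.503 to 10.4 ± 2.39 CPM (log2 change -0.904, adjusted p = 2.69e-06), while Alx4, an anterior regulator of Shh expression, did not pass the test (log2 change -0.0911 ± 0.14 SE, adjusted p = 0.715). Tbx3 had log2 change -0.25 ± 0.0762 SE, adjusted p = 0.0712 and was not called, but with the replicate number as a block it was (-0.29, adjusted p = 0.0316). Tbx2 did not pass the test (log2 change 0.22 ± 0.19 SE, adjusted p = 0.432). The forelimb gene Tbx5 itself rose from 85.7 ± 12.1 to 126 ± 10.9 CPM (log2 change 0.56, adjusted p = 1.42e-05). In the list of 10 limb mesenchyme markers 2 were higher and 3 were lower, among the latter Lhx2, a distal LIM homeobox gene (log2 change -0.602, adjusted p = 8.54e-06).

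Among cartilage and connective tissue genes, more members of the lists rose than fell, and many were not called. Sox9, the transcription factor of the cartilage lineage, had 43.6, 38.6, 51.97 and 57.1 CPM in the E10.0 buds and 86.2, 80.5, 82.2 and 84.3 CPM in the E10.5 buds. The rise was 1.74-fold (log2 change 0.802 ± 0.13 SE, adjusted p = 4.79e-10). Col9a2, a chain of collagen IX, had 0.424, 0.181, 0.701 and 0.491 CPM in the E10.0 buds and 2.095, 1.24, 2.77 and 3.37 CPM in the E10.5 buds. That is 5.34-fold higher (log2 change 2.42 ± 0.48 SE, adjusted p = 8.51e-10). Both were higher in every E10.5 library. Col2a1, the major cartilage collagen and a later marker, did not pass the test, with 64.9, 88.5, 105 and 92.97 CPM in the E10.0 buds and 82.7, 89.8, 120.2 and 107 CPM in the E10.5 buds (log2 change 0.19 ± 0.19 SE, adjusted p = 0.447). Of 20 chondrogenic genes tested, 8 were higher and 2 were lower, with a median log2 change of 0.32 in mutants and 0.18 in wild types.

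Among tendon and connective tissue genes, 8 of 14 were higher and 1 was lower, with 2 lower in the fits without E10.0 replicate 1, 4 or 5 or E10.5 replicate 2 or 4 and 3 lower with the replicate set as a block. Scx, the tendon lineage factor, had 4.505, 3.64, 6.03 and 5.61 CPM in the E10.0 buds and 12.3, 12.7, 16.8 and 17.3 CPM in the E10.5 buds. The rise was 2.99-fold (log2 change 1.58 ± 0.21 SE, adjusted p = 4.97e-16). Lum had 5.73, 2.54, 3.14 and 3.67 CPM in the E10.0 buds and 19.97, 17.7, 16.6 and 15.6 CPM in the E10.5 buds. That is 4.62-fold higher (log2 change 2.21 ± 0.26 SE, adjusted p = 3.00e-23). Tnc, which encodes the matrix protein tenascin C, was the one that fell, with 14.5, 31.1, 24.98 and 10.2 CPM in the E10.0 buds and 2.602, 5.47, 2.41 and 1.15 CPM in the E10.5 buds (log2 change -2.78 ± 0.58 SE, adjusted p = 4.76e-11), and in none of these 3 did the stages overlap. In wild types Tnc had 4.31, 12.4 and 2.52 CPM in the E10.0 buds and 3.92, 3.96 and 9.198 CPM in the E10.5 buds and did not pass the test (log2 change -0.17, adjusted p = 0.856), and the difference between the genotypes did not pass either (log2 -2.57, adjusted p = 0.525 by the quasi-likelihood test). Of 47 collagen and other matrix genes, 13 rose, such as Fbln5, an elastic fibre protein (log2 change 1.21, adjusted p = 4.03e-12), and Eln, which encodes elastin (log2 change 1.16, adjusted p = 8.01e-05). In the other direction 10 matrix genes fell, among them the basement membrane chain Lama1 (log2 change -1.03, adjusted p = 1.25e-09), a count of 5 or 6 without E10.0 replicate 3, 4 or 5 or E10.5 replicate 2 or 5.

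**Figure D3:**
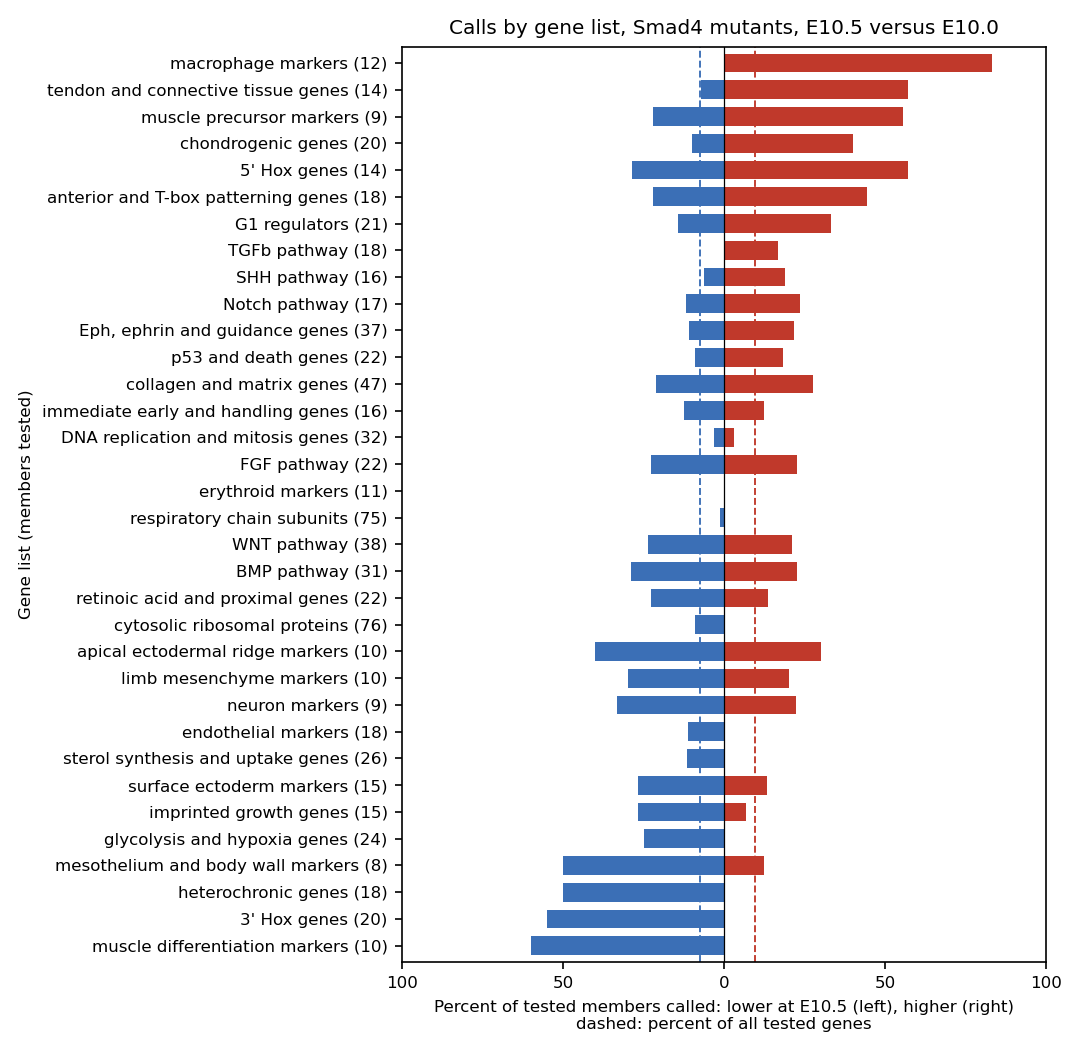
Percent of the tested members of each gene list that were called higher (red, right) or lower (blue, left) at E10.5 in mutants, for lists with 8 or more tested members (number in brackets), with dashed lines at the 9.71% and 7.42% of all tested genes. Macrophage markers reach 83.3% on the higher side, and muscle differentiation markers reach 60% on the lower side.

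Markers of cells that enter the bud or border it moved in several directions. Macrophage markers rose: 10 of 12 tested were higher. The summed level of the 15 counted, tested or not, went from 20.3 to 23.0 CPM at E10.0 to 35.4 to 47.0 CPM at E10.5, with no overlap. Csf1r, the receptor for the macrophage growth factor, had 1.75, 1.95, 2.104 and 2.76 CPM in the E10.0 buds and 6.12, 4.53, 3.99 and 3.77 CPM in the E10.5 buds. The rise was 2.17-fold (log2 change 1.12 ± 0.21 SE, adjusted p = 4.79e-06). Mrc1, the mannose receptor, had 2.38, 1.55, 2.36 and 2.83 CPM in the E10.0 buds and 7.11, 4.73, 5.26 and 4.77 CPM in the E10.5 buds. That is 2.42-fold higher (log2 change 1.27 ± 0.23 SE, adjusted p = 1.32e-07). Neither gene overlapped. In wild types 10 of the 12 were higher as well, with sums over the 15 of 9.89 to 18.5 CPM at E10.0 and 30.6 to 35.4 CPM at E10.5.

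Muscle genes divided between precursor and differentiation genes. Of 9 precursor markers tested, 5 were higher. Myf5, the first myogenic factor, had 1.89, 1.09, 1.45 and 0.888 CPM in the E10.0 buds and 4.799, 4.42, 3.23 and 3.96 CPM in the E10.5 buds. The rise was 3.07-fold (log2 change 1.62 ± 0.26 SE, adjusted p = 3.90e-10). Msc, a bHLH factor of myogenic cells, went from 0.597 ± 0.279 to 2.14 ± 0.427 CPM (log2 change 1.89, adjusted p = 1.04e-08). Both were apart between stages. In this list 2 markers were lower, of which Pax3, the factor of migrating precursors, had log2 change -0.35 ± 0.0907 SE, adjusted p = 0.01998, and in replicates 1 to 3 alone it changed by -0.26 (adjusted p = 0.264). With 1 library left out the lower count ran from 1 to 3, being 1 without E10.0 replicate 3 or 4 or E10.5 replicate 2, 4 or 5. Lbx1, another factor of migrating precursors, did not pass the test (log2 change -0.56 ± 0.35 SE, adjusted p = 0.175).

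Most tested differentiation markers went down in the mutants, with 6 of 10 lower, 0 higher and a median log2 change of -1.13. Their log2 changes ran from -2.38 to 0.41, and 1 was called higher without E10.0 replicate 1 or without the filter on low counts. Myod1, another member, was too low to be tested, with 29, 12, 9 and 16 reads at E10.0 and 61, 41, 29 and 22 reads at E10.5. Myog, which drives muscle differentiation, had 5.37, 2.06, 2.83 and 3.74 CPM in the E10.0 buds and 0.997, 1.43, 0.1898 and 0 CPM in the E10.5 buds (log2 change -2.38 ± 1.21 SE, adjusted p = 8.37e-04), from 329, 125, 109 and 160 reads at E10.0 to 59, 77, 7 and 0 reads at E10.5. Des, which encodes the intermediate filament desmin, had 4.91, 11.6, 8.47 and 7.78 CPM in the E10.0 buds and 1.93, 2.598, 1.82 and 1.43 CPM in the E10.5 buds (log2 change -2.06 ± 0.31 SE, adjusted p = 3.00e-14), and Actc1, cardiac actin, had 5.599, 1.797, 2.52 and 4.77 CPM in the E10.0 buds and 1.54, 2.28, 0.651 and 0.468 CPM in the E10.5 buds. That is 2.93-fold lower (log2 change -1.55 ± 0.64 SE, adjusted p = 0.00254). The stages were apart for Myog and Des but overlapped for Actc1, and replicates 4 and 5 were lowest at E10.5 for Myog and Actc1. DESeq2 gave Myog an adjusted p of 0.112, and replicates 1 to 3 alone gave Actc1 a log2 change of -0.95 (adjusted p = 0.149). Summed over the 22 members counted, tested or not, the level went from 32.8 to 44.6 CPM at E10.0 to 20.7 to 27.7 CPM at E10.5.

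Among 8 tested markers of mesothelium, which lines the body cavity next to the bud, 4 fell and 1 rose, and among 3 tested markers of heart and visceral mesoderm 2 fell. Upk3b had 2.99, 7.93, 5.32 and 2.69 CPM in the E10.0 buds and 0.203, 0.594, 0.108 and 0.125 CPM in the E10.5 buds (log2 change -4.12 ± 0.597 SE, adjusted p = 1.30e-17), from 183, 481, 205 and 115 reads at E10.0 to 12, 32, 4 and 4 reads. Wt1, a zinc finger factor of mesothelium, had 5.08, 9.43, 9.58 and 4.81 CPM in the E10.0 buds and 1.71, 1.65, 0.651 and 0.437 CPM in the E10.5 buds. The fall was 6.35-fold (log2 change -2.67 ± 0.54 SE, adjusted p = 6.01e-12). Gata5 had 1.698, 3.28, 2.21 and 1.26 CPM in the E10.0 buds and 0.355, 0.3897, 0.217 and 0.218 CPM in the E10.5 buds. That is 6.903-fold lower (log2 change -2.79 ± 0.35 SE, adjusted p = 5.37e-15). In all 3 every E10.5 library was below every E10.0 library, replicates 4 and 5 being the lowest. Lrrn4 and Gata6 fell alike, by 2.18 and 1.77 on the log2 scale. The marker that rose was Tbx18, which limb mesenchyme also expresses. Summed over the 10 mesothelial markers counted, tested or not, the level went the other way, from 109 to 113 CPM at E10.0 to 141 to 156 CPM at E10.5. Of this Tbx18 made up 51.6 to 75.1 CPM and 115 to 134 CPM. How much body wall was taken with each bud was not measured.

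Other cell types changed less, and 11.1% of the endothelial markers tested were called, against 17.1% of all genes. Among 18 endothelial markers 2 were lower: Erg, an endothelial transcription factor, had log2 change -0.57 ± 0.11 SE, adjusted p = 9.68e-05, whereas Kdr, a VEGF receptor, had log2 change -0.29 ± 0.13 SE, adjusted p = 0.0637 and lost its call in all but 2 of the fits that left out 1 library, those without replicate 1 of either stage, with adjusted p values of 0.109 to 0.224, and when blocked by replicate number (0.228). With 1 library left out the endothelial count ran from 1 to 5, being 5 without E10.0 replicate 1, 3 without E10.5 replicate 1, 2 without E10.5 replicate 4 and 1 without the others, and 4 were lower with the replicate set as a block. The 11 erythroid markers tested had log2 changes between -0.34 and 0.0847 and 0 were called by edgeR's exact test, by the quasi-likelihood test or by DESeq2, with 0 at an unadjusted p under 0.05. Hbb-y, another embryonic globin, was called higher with the replicate number as a block (log2 change 0.27, adjusted p = 0.0215), without E10.0 replicate 3 (0.32) and in replicates 4 and 5 alone (0.32). Hbb-bh1, an embryonic globin, had 797, 1258, 866 and 873 CPM in the E10.0 buds and 716, 916, 889 and 907 CPM in the E10.5 buds (log2 change -0.15 ± 0.17 SE, adjusted p = 0.558), so the spread within each stage exceeded the difference. In wild types 6 of the 11 were higher.

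Surface ectoderm markers had 2 of 15 higher and 4 lower (9.71% and 7.42% of all genes). Krt14, a basal keratin, had log2 change 0.73 ± 0.25 SE, adjusted p = 0.01004, while the 4 called lower were Trp63, Grhl2, Cldn6 and Cldn7. The count of lower genes ran from 0 without E10.0 replicate 3 to 5 (1 without replicate 1 of either stage and 2 without E10.5 replicate 5), and that of higher genes was 1 without E10.5 replicate 4 or 5. For Cldn6, a claudin, replicates 1 to 3 gave a log2 change of -0.76 and replicates 4 and 5 gave -0.0903. With the replicate number as a block Cldn6 (0.144), Cldn7 (0.108) and Grhl2 (0.192) were not called. Ridge markers had 3 of 10 higher and 4 lower, with 1 lower without E10.0 replicate 3 or E10.5 replicate 1 or 5 and 2 lower without E10.0 replicate 1 or E10.5 replicate 4. Sp6, a ridge transcription factor, had 34.05, 44.1, 28.9 and 22.6 CPM in the E10.0 buds and 14.3, 18.6, 21.2 and 18.8 CPM in the E10.5 buds (log2 change -0.83 ± 0.24 SE, adjusted p = 6.21e-05), with the stages apart. Neurofilament genes Nefl and Nefm fell by 0.97 and 1.09 on the log2 scale, whereas Dcx, of young neurons, rose (log2 change 0.53, adjusted p = 3.03e-05), among 9 neuron markers of which 3 were lower and 2 higher, the higher count being 1 without E10.0 replicate 3 or 5 or E10.5 replicate 2 or 5. Of 5 neural crest and Schwann precursor markers, Tfap2b rose (log2 change 1.04, adjusted p = 7.31e-17) and Ngfr fell (log2 change -0.87, adjusted p = 1.83e-08). Sclerotome and somite markers rose at 3 of 6, including Meox2 (log2 change 1.29, adjusted p = 4.11e-23), and Meox1 fell (log2 change -0.57, adjusted p = 4.98e-04).

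Cell cycle genes were close to their E10.0 levels, with 1 of 32 replication and mitosis genes higher and 1 lower (6.25% against 17.1% of all genes). Leaving out E10.0 replicate 1 gave 3 lower, and leaving out E10.0 replicate 3 or E10.5 replicate 4 or 5 left 0 higher. G1 regulators were called more often, 7 of 21 higher and 3 lower, with 4 higher without E10.0 replicate 4. Cdkn1c, an imprinted inhibitor of cyclin-dependent kinases, had 109, 110.1, 131 and 129.8 CPM in the E10.0 buds and 193, 195, 223 and 238 CPM in the E10.5 buds. The rise was 1.77-fold (log2 change 0.82 ± 0.103 SE, adjusted p = 9.31e-13). Mycn, which drives proliferation, had 117, 136, 113 and 111 CPM in the E10.0 buds and 77.2, 80.8, 70.7 and 69.5 CPM in the E10.5 buds. That is 1.596-fold lower (log2 change -0.67 ± 0.08403 SE, adjusted p = 4.65e-10). The stages did not overlap for either gene. Of the other imprinted growth genes, Dlk1 fell (log2 change -0.63, adjusted p = 9.34e-05) and Peg10 fell (log2 change -0.49, adjusted p = 2.54e-05), while H19 (log2 change 0.13, adjusted p = 0.505) and Igf2 (log2 change 0.22, adjusted p = 0.0794) were not called.

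In the p53 and cell death list, 4 of 22 rose and 2 fell (9.71% and 7.42% of all genes), with 1 lower without E10.0 replicate 3 or E10.5 replicate 1, 2 or 5. Pmaip1, which encodes the death effector NOXA, had 28.2, 6.94, 15.9 and 23.1 CPM in the E10.0 buds and 108, 98.96, 83.4 and 86.6 CPM in the E10.5 buds. The rise was 5.08-fold (log2 change 2.35 ± 0.45 SE, adjusted p = 2.66e-14). Bmf, another BH3-only death gene, had 29.5, 30.9, 29.7 and 29.01 CPM in the E10.0 buds and 54.7, 60.05, 59.5 and 59.7 CPM in the E10.5 buds. That is 1.96-fold higher (log2 change 0.97 ± 0.0374 SE, adjusted p = 7.41e-23). Trp53inp1, a p53 target, rose from 26.2 ± 4.07 to 53.1 ± 9.07 CPM (log2 change 1.02, adjusted p = 1.65e-11). All 3 were apart between stages. Notch pathway genes were called at 35.3% of 17 and guidance genes at 32.4% of 37, 8 higher and 4 lower, with Robo2, an axon guidance receptor, at 38.9, 19.5, 31.9 and 44.9 CPM in the E10.0 buds and 119, 98.3, 101 and 94.3 CPM in the E10.5 buds. The rise was 3.05-fold (log2 change 1.61 ± 0.27 SE, adjusted p = 7.13e-16). Of the Notch genes 4 were higher, 2 without E10.0 replicate 4 or 5 or E10.5 replicate 2, and 2 were lower, 1 without E10.5 replicate 4 or 5.

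Metabolic lists differed in how many members were called. Of 26 tested genes of sterol synthesis and uptake, 3 were lower (11.5% called, against 17.1% of all genes), with 1 lower without E10.0 replicate 3 or E10.5 replicate 1. Summed over the 27 counted, the level of 2138 to 2294 CPM at E10.0 overlapped with 2002 to 2289.5 CPM at E10.5. Glycolysis and hypoxia genes fell at 6 of 24 tested, with 3 lower without E10.5 replicate 2. Summed over the 27 counted, the level went from 8301 to 9676 CPM at E10.0 to 7039 to 7886 CPM at E10.5, with no overlap. Of these, Hk2, the hexokinase that starts the pathway, had 95.7, 94.8, 110.2 and 96.4 CPM in the E10.0 buds and 66.6, 59.5, 61.9 and 60.02 CPM in the E10.5 buds. That is 1.601-fold lower (log2 change -0.68 ± 0.0633 SE, adjusted p = 2.37e-11). Cytosolic ribosomal proteins were lower at 7 of 76, close to the 7.42% of all genes, with a range of 1 to 16 when 1 library was left out (1 without E10.0 replicate 3 or E10.5 replicate 1, 2 without E10.0 replicate 4, 3 without E10.5 replicate 2, 11 without E10.5 replicate 5 and 16 without E10.0 replicate 1) and 12 with the replicate set as a block. Of 75 respiratory chain subunits 1 was lower, with 2 without E10.0 replicate 1 and 0 without E10.5 replicate 1. Immediate early and handling genes were called at 4 of 16 (25%, against 17.1% of all genes), 2 in each direction, with 1 lower without E10.0 replicate 3. Btg2 rose (log2 change 0.88, adjusted p = 7.55e-11) and Atf3 fell (log2 change -0.54, adjusted p = 0.0361), but Atf3 was not called without E10.0 replicate 3 (0.110) or E10.5 replicate 4 (0.132), nor in either replicate set alone (0.162 and 0.172). Few replication-dependent histones carry poly(A) tails, and 4 of the 68 symbols were tested, of which Hist2h2be rose (log2 change 0.94, adjusted p = 1.28e-06). The summed level of all 68 symbols, tested or not, was 59.3 CPM in E10.5 replicate 5 against 17.1 to 26.6 CPM in the other 7 libraries.

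Wild types of the same stages were compared in the same way, to set the changes of the mutants beside those of normal buds. Wild types had 1017 genes higher and 1015 lower by the same test, over the same genes. Of the 2157 genes that changed in mutants, 2031 (94.2%) had the same sign in wild types, against 73.9% of all genes tested, and 1049 passed the test the same way, which is 48.6% of the mutant calls and 51.6% of the wild-type calls. A further 16 went the other way with a call in each genotype, 14 of them lower in mutants and higher in wild types. The difference between the genotypes passed edgeR's quasi-likelihood test, as an interaction between genotype and stage, at 22 genes (0.175% of those tested), 7 with a more positive and 15 with a more negative change in mutants, and 704 genes had an unadjusted p under 0.05. DESeq2 gave 76 such genes, and with 1 library left out the quasi-likelihood test gave 7 (without mutant E10.5 replicate 5) to 34 (without mutant E10.0 replicate 5). Rn45s took 1.72 to 8.05% of reads on genes in mutant replicates 4 and 5. In wild types it took 0.214 to 0.292% at E10.0 and 0.244 to 0.478% at E10.5. No wild-type library thus matched those mutant libraries, and in the interaction this feature cannot be told apart from genotype.

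**Figure D4:**
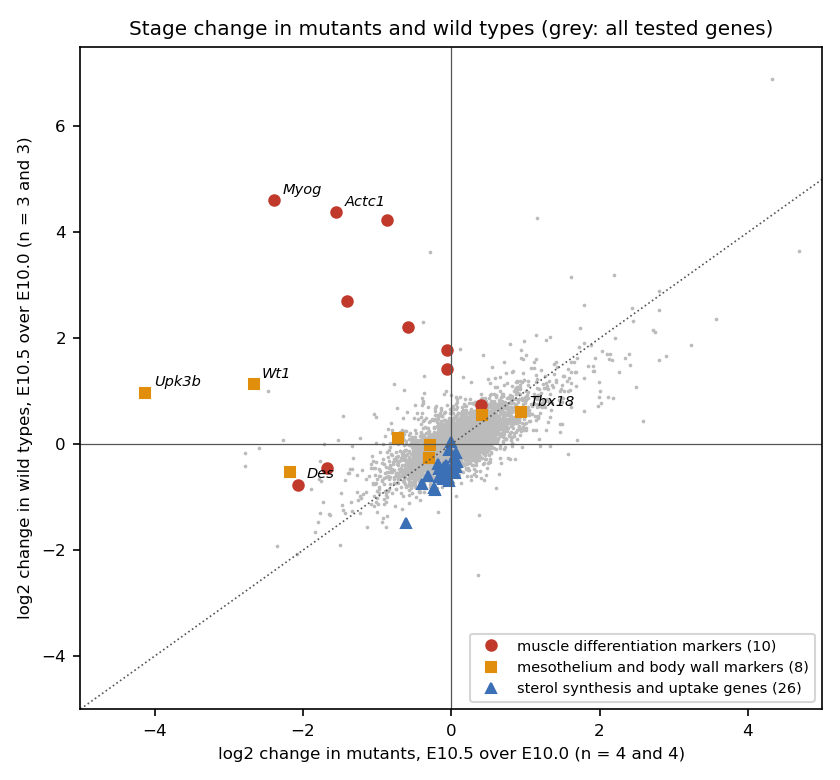
Log2 change from E10.0 to E10.5 in mutants (x axis) against that in wild types (y axis) for the 12594 genes tested (grey), with the line of equal change dotted and 3 gene lists in colour. Myog, Actc1, Wt1 and Upk3b lie to the upper left, with a negative change in mutants and a positive one in wild types, and most sterol genes lie below the line, with a more negative change in wild types.

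Of 10 muscle differentiation genes tested, 6 passed the interaction test, of which Ttn passed in 3, and Acta2 and Tnnt1 in 7 each, of the 14 fits that left out 1 library. With the replicate number as a block these 3 did not pass (0.197, 0.157 and 0.171), and neither did Myh3 (0.146), while Myog (0.0386) and Actc1 (0.0544) did. Myog in wild types had 0.267, 0.0987 and 0.237 CPM in the E10.0 buds and 4.42, 2.97 and 7.52 CPM in the E10.5 buds (log2 change 4.604, adjusted p = 7.15e-28), where mutants fell, and the difference between the log2 changes was -6.88, adjusted p = 0.0153. Actc1 in wild types had 0.321, 0.217 and 0.732 CPM in the E10.0 buds and 8.76, 3.65 and 14.1 CPM in the E10.5 buds (log2 change 4.39, adjusted p = 6.46e-17), a difference of -5.901, adjusted p = 0.0153. Myh3, embryonic myosin, had 2.497, 0.725, 1.25 and 3.25 CPM in the E10.0 buds and 1.23, 1.26, 0.841 and 0.873 CPM in the E10.5 buds in mutants and 0.107, 0.395 and 0.28003 CPM in the E10.0 buds and 3.97, 1.85 and 8.92 CPM in the E10.5 buds in wild types, a difference of -5.08, adjusted p = 0.0355. At E10.0 the mutants stood above the wild types for Myog and at E10.5 below them, with no overlap of the genotypes at either stage. The mutant call for Myh3 itself was weak (log2 change -0.86, adjusted p = 0.0951), was lost in 6 of the 8 fits that left out 1 library, all but those without E10.0 replicates 3 and 4 (adjusted p up to 0.423), and did not hold with the replicate set as a block (0.155). As a sum, the list went from 15.7 to 22.0 CPM to 29.2 to 73.5 CPM in wild types, the reverse of the mutants.

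Promoters of 2 of these genes are shown because both moved in opposite directions between the genotypes, as the 250 bases before the transcription start in RefSeq (GRCm38.p6), with E-boxes, the CANNTG motif that myogenic bHLH factors bind as a subset, and the CArG box, bound by SRF, searched on both strands and given in capitals.
Myog promoter, chr1:134289754-134290003, plus strand: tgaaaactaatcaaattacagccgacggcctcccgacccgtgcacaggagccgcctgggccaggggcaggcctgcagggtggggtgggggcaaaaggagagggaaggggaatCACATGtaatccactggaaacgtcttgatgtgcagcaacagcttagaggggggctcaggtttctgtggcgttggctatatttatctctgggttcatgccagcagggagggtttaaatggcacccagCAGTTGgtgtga
Actc1 promoter, chr2:114052876-114053125, minus strand: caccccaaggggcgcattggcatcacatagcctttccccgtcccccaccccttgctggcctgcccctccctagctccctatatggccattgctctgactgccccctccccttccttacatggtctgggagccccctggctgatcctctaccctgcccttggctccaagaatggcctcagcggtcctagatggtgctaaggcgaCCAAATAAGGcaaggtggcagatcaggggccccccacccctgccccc
The Myog window holds 2 E-boxes, 138 and 12 bases upstream, as do or exceed 31.8% of 32851 promoters of the same length, and the Actc1 window holds 1 CArG box, 47 bases upstream, as do 1.47% of promoters. These matches are descriptions of letters and not evidence of binding.

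Of the 8 mesothelial markers tested 2 passed the interaction test, Wt1 and Upk3b, and of the 22 retinoic acid and proximal genes 1 did, Aldh1a2. Aldh1a2 in wild types had 5.295, 6.39 and 3.75 CPM in the E10.0 buds and 7.59, 11.04 and 12.2 CPM in the E10.5 buds (log2 change 0.999, adjusted p = 7.94e-05) while it fell in mutants, and the difference was -3.45, adjusted p = 0.00348. Wt1 in wild types had 1.57, 1.82 and 0.862 CPM in the E10.0 buds and 2.19, 3.3002 and 3.84 CPM in the E10.5 buds (log2 change 1.13, adjusted p = 0.00118), a difference of -3.75, adjusted p = 0.0192. Upk3b in wild types had 0.606, 0.691 and 0.108 CPM in the E10.0 buds and 0.517, 0.868 and 1.402 CPM in the E10.5 buds (log2 change 0.98, adjusted p = 0.127), a difference of -5.04, adjusted p = 0.0375. At E10.0 every mutant library lay above every wild-type library for these 3 genes, and at E10.5 every mutant library lay below every wild-type one for Aldh1a2 and Wt1, while those for Upk3b overlapped. Gata5 parted as well (-2.37, adjusted p = 0.0733), but in only 5 of the 14 fits that left out 1 library. Aldh1a2, Myog and Wt1 passed in all 17 alternative fits of the interaction, and Actc1, Calb2, Cyp1b1 and Fam163b passed in all 14 that left out 1 library. Upk3b and Myh3 passed in 11 of those 14. With replicates 1 to 3 alone, Actc1 (0.132), Calb2 (0.274), Cyp1b1 (0.132), Fam163b (0.320), Upk3b (0.267) and Myh3 (0.321) did not pass. Of the 22 interaction genes only Aldh1a2, Myog, Wt1 and Hoxa11as passed in that fit.

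**Figure D5:**
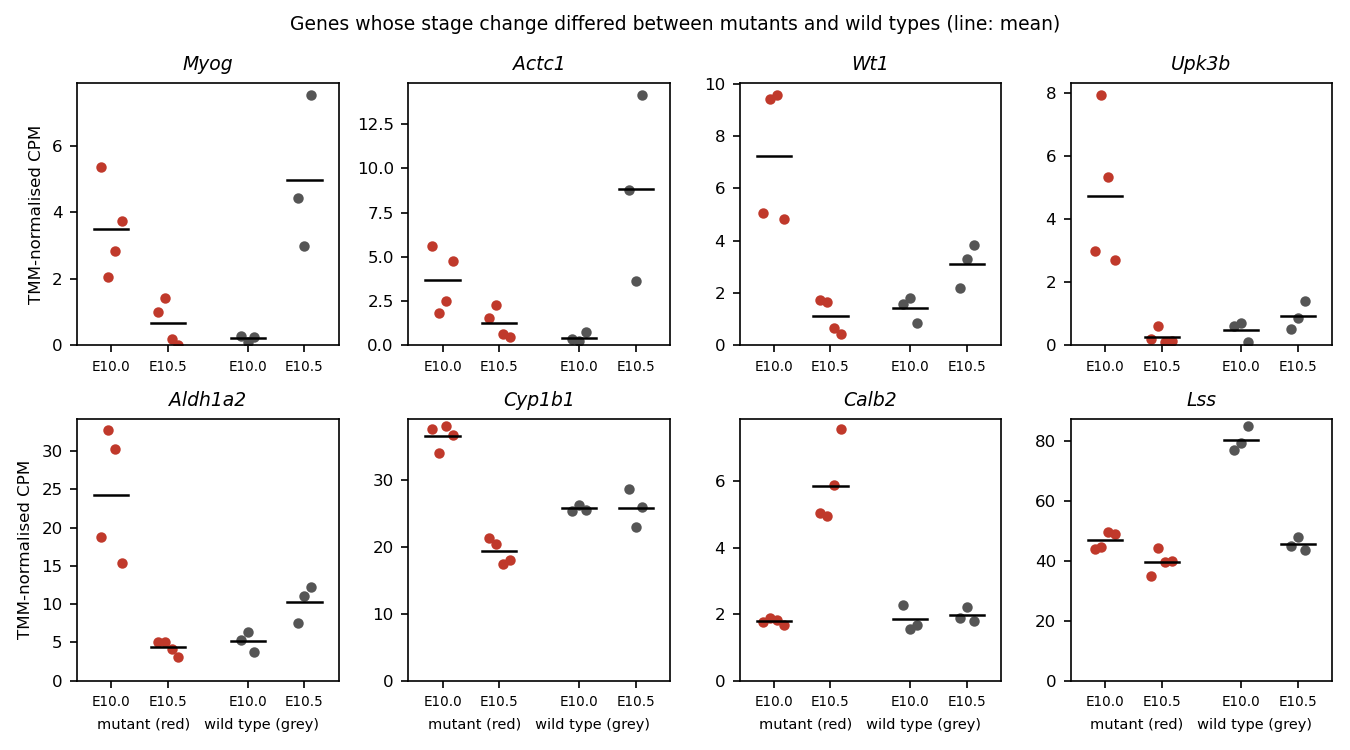
CPM in each library for 8 genes whose stage change differed between the genotypes, mutants in red and wild types in grey, one point per library and a line at each mean. Myog and Wt1 fall in the mutants and rise in the wild types, Calb2 rises in the mutants alone, and Lss falls mainly in the wild types.

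Genes with a more positive change in mutants were fewer. Fam163b had 0.343, 0.297, 0.312 and 0.327 CPM in the E10.0 buds and 1.89, 1.8000, 2.03 and 2.06 CPM in the E10.5 buds in mutants and 1.18, 0.651 and 0.819 CPM in the E10.0 buds and 1.57, 0.907 and 1.13 CPM in the E10.5 buds in wild types, a difference of 2.17, adjusted p = 0.0192. Calb2, which encodes the calcium-binding protein calretinin, had 1.76, 1.896, 1.82 and 1.68 CPM in the E10.0 buds and 5.05, 4.94, 5.88 and 7.58 CPM in the E10.5 buds in mutants and 2.28, 1.56 and 1.68 CPM in the E10.0 buds and 1.88, 2.2001 and 1.81 CPM in the E10.5 buds in wild types, a difference of 1.62, adjusted p = 0.0192. Both genes were higher in all mutant libraries of E10.5 than in those of E10.0 and overlapped between the wild-type stages. Cyp1b1 gave the opposite picture, 37.6, 33.9, 38.1 and 36.7 CPM in the E10.0 buds and 21.3, 20.4, 17.4 and 18.1 CPM in the E10.5 buds in mutants and 25.4, 26.2 and 25.5 CPM in the E10.0 buds and 28.6, 22.9 and 25.9 CPM in the E10.5 buds in wild types, a difference of -0.92, adjusted p = 0.0153.

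Sterol genes supplied 3 of the genes with a more positive change in mutants, Lss, Dhcr7 and Fdft1, all of cholesterol synthesis. In wild types 22 of the 26 sterol genes fell, with a median log2 change of -0.48, where the mutants had 3 and a median of -0.0731, and 20 had an unadjusted interaction p under 0.05. Lss, which makes lanosterol, had 43.99, 44.6, 49.6 and 48.8 CPM in the E10.0 buds and 34.96, 44.1, 39.5 and 39.97 CPM in the E10.5 buds in mutants and 76.9, 79.1 and 84.9 CPM in the E10.0 buds and 45.02, 47.8 and 43.4 CPM in the E10.5 buds in wild types, a difference of 0.59, adjusted p = 0.0753. All 8 mutant levels lay below the 3 wild-type levels of E10.0 and overlapped with those of E10.5, and the summed level of the list in wild types went from 3350 to 3478 CPM to 2350.1 to 2505 CPM. Lss passed the interaction test in 2 of the 14 fits that left out 1 library and Dhcr7 and Fdft1 in 3 each. With replicates 1 to 3 alone Lss (0.268), Dhcr7 (0.441) and Fdft1 (0.448) did not pass it. With the replicate number as a block the fall of Lss in mutants was itself called (-0.32, adjusted p = 0.00977).

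Replicates 4 and 5 repeated the stage change of replicates 1 to 3 for most genes. Fitted alone, replicates 1 to 3 gave 2024 genes, of which 1944 (96.0%) had the same sign in replicates 4 and 5, and replicates 4 and 5 gave 2313, of which 2193 (94.8%) had the same sign in the others. A total of 1185 genes passed in both with the same sign. Across all genes, of which 74.1% agreed in sign, the 2 sets of log2 changes had a Pearson r of 0.731 and a Spearman rho of 0.673, a description over genes, which are not independent. With the replicate set as a block, 2672 genes passed, 9 of the 2157 were lost and 0 turned their sign.

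The stage change differed between the replicate sets at 9 genes by the quasi-likelihood test (0.0715% of those tested), with 724 at an unadjusted p under 0.05. Mid1, an X-linked gene for a ubiquitin ligase, had 23.2, 32.000, 185 and 198 CPM in the E10.0 buds and 20.9, 21.5, 23.3 and 25.8 CPM in the E10.5 buds, so that E10.0 replicates 4 and 5 alone stood high, and the difference between the sets was -2.59, adjusted p = 8.88e-04. AI506816 had 5.42, 4.98, 3.69 and 5.09 CPM in the E10.0 buds and 3.58, 4.32, 38.04 and 41.03 CPM in the E10.5 buds, with E10.5 replicates 4 and 5 alone high (3.56, adjusted p = 5.15e-04). Wild types held the same 2 levels of AI506816, 40.7, 4.697 and 3.92 CPM in the E10.0 buds and 4.51, 42.2 and 44.01 CPM in the E10.5 buds, without a link to stage. Pop4, a subunit of ribonuclease P, had 64.8, 61.9, 60.7 and 59.5 CPM in the E10.0 buds and 29.05, 29.9, 60.8 and 65.4 CPM in the E10.5 buds, where E10.5 replicates 1 and 2 were low (1.18, adjusted p = 0.00231), as was 1 of the 6 wild-type libraries, with 61.7, 64.6 and 57.9 CPM in the E10.0 buds and 27.1, 61.5 and 60.9 CPM in the E10.5 buds. The main test called Mid1 lower (log2 change -2.26) and AI506816 higher (2.18), but these values rest on 2 libraries each: in replicates 1 to 3 alone Mid1 changed by -0.38 (adjusted p = 0.107) and AI506816 by -0.39 (adjusted p = 0.291). Pop4 was not called (log2 change -0.42, adjusted p = 0.196) except with the replicate set as a block (-0.52, adjusted p = 0.0643) or in replicates 1 to 3 alone (-1.10, adjusted p = 1.19e-20).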

How the data were processed

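Poly(A) RNA of both forelimb buds of 1 embryo was sequenced in single 50-cycle reads. The authors aligned reads to mm9 with TopHat2 2.0.13 and deposited raw read counts per RefSeq symbol from HTSeq without strand, and these counts were the unit used. Summary lines were left out; they held 6.60 to 9.86% (reads on no feature) beside the reads on genes of the mutants. Genes with 1 CPM in 3 of 8 mutant libraries were scaled by TMM and tested with edgeR 4.0.16 (R 4.3.3) by its exact test with tagwise dispersions (prior 10 degrees of freedom), at a false discovery rate of 0.1 and 1.2-fold. Interactions used the quasi-likelihood test, and DESeq2 1.42.0 was an alternative. SEs used log2 CPM with a prior count of 2. Genes called by the exact test were named as the 12 with the smallest p in each direction, among those whose stages did not overlap. Core and strongest members of fixed lists were added. The members and lists were chosen with earlier results of these data known. Scripts were tested on simulated data.

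Labels give replicate numbers at both stages. Deviations from the stage mean correlated at 0.58, 0.62 and 0.28 for mutant replicates 1, 4 and 5, all above 0.1, so the numbers were taken to pair libraries, as a match in the data, since the labels name no shared litter or day; unlike numbers of the same set also correlated (0.37 for E10.0 replicate 1 with E10.5 replicate 2, 0.40 for 4 with 5 and 0.30 for 5 with 4, the last above the 0.28 of number 5). Numbers 3 and 2 had no partner. In the mutant fits blocked by replicate number, E10.0 replicate 3 and E10.5 replicate 2 therefore added nothing to the stage estimate. P-values measure the spread between embryos. Coordinates are mm9 unless another build is named. Symbols on chromosomes X, Y and M stayed in. Some genes that the naming rule selects are not reported here.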

Additional observations from a re-analysis of the deposited data

Results flagged for a closer look

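In a group of 4 libraries, a lone high or low value was flagged where its gap to the next was too large a share of the group's range by Dixon's test at its 95% level. Of 352 groups of named genes 15 were flagged (4.26%), near the 1 in 20 that chance gives. At E10.0 these were Alx4 at 54.2 CPM (low in replicate 1), Hbb-bh1 at 1260 CPM, Prtg at 146 CPM (both high in replicate 3), Tbx4 at 2.11 CPM (low in replicate 3) and Hk2 at 110 CPM (high in replicate 4). At E10.5, replicate 1 was low for Bmf at 54.7 CPM, Col9a1 at 48.1 CPM, Hbb-bh1 at 716 CPM, Hoxc13 at 1.15 CPM, Hsph1, a heat shock protein, at 303 CPM and Wnt7a at 4.93 CPM, and it was high for Gli3 at 281 CPM. Replicate 2 was high for Crb2 at 3.6 CPM and Wnt2 at 2.86 CPM, and replicate 5 for Hoxb7 at 5.39 CPM.

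The stage change differed between the genotypes at 22 genes by the quasi-likelihood test. Given as the mutant log2 change less the wild-type one, the muscle genes were Myog at -6.88, Actc1 at -5.90, Myh3 at -5.08, Ttn at -4.11, Acta2 at -2.78 and Tnnt1 at -1.82. Genes of mesothelium, visceral mesoderm and retinoid metabolism were Upk3b at -5.04, Wt1 at -3.75, Aldh1a2 at -3.45, Gata5 at -2.37 and Cyp1b1 at -0.92. The sterol genes were Lss at 0.59, Dhcr7 at 0.54 and Fdft1 at 0.49. The others were Fam163b at 2.17, Calb2 at 1.62, Bmf at 0.66, Hoxa11as at 0.62, Srbd1 at -0.46, Syt7 at -0.88, Gm98 at -1.04 and Ccdc141 at -1.15. Of the 14 fits that left out 1 library, Hoxa11as passed in 4, Bmf and Srbd1 in 3 each, and Syt7, Gm98 and Ccdc141 in 2 each.

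Between replicates 4 and 5 and replicates 1 to 3 of the mutants, the stage change differed at 9 genes, with log2 differences of 4.13 for Slc15a2, 3.56 for AI506816, 3.04 for 1500004A13Rik, 2.48 for 5830417I10Rik, 1.18 for Pop4, 1.09 for Gm15645, 0.84 for 4632415L05Rik, -0.68 for Pole and -2.59 for Mid1.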

How the results depend on the processing

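The 2157 stage calls of the mutants lay between 1623 (without E10.0 replicate 3) and 2522 (without E10.0 replicate 1) when 1 library was left out, with 957 to 1322 higher and 666 to 1200 lower. They numbered 2164 with DESeq2's size factors, 2507 without the filter on low counts, 2077 by the quasi-likelihood test, 2271 by DESeq2, 2051 without chromosomes X, Y and M, 1801 at a rate of 0.05 and 2352 without a minimum fold. With the replicate number as a replicate block there were 2238, and with the replicate set as the block 2672. The first block takes E10.0 replicate 3 and E10.5 replicate 2, which have no partner, out of the stage estimate. Under one block or the other the calls of Grhl2, Cldn6, Cldn7, Hhip, Hoxa11, Igf2r, Kdr, Myh3, Pgam1 and Rps2 were lost and those of Hbb-y, Lss, Pop4, Rn45s and Tbx3 were gained, and no other call on a named gene changed. The wild-type count of 2032 was 1237 under the block and 1073 (without E10.5 replicate 3) to 2557 with 1 library left out, being 1203 without E10.0 replicate 2; the wild-type numbers did not pair. The 22 interactions of stage and genotype numbered 76 by DESeq2, 6 with replicates 1 to 3 alone, 16 under the block and 7 (without mutant E10.5 replicate 5) to 34 (without mutant E10.0 replicate 5) with 1 library left out. The 9 interactions with the replicate set numbered 29 by DESeq2. Of 3517 values of named genes under alternatives, 3362 kept their side of the threshold and their sign, 126 lost a call, 28 gained one and 1 reversed: AI506816 with replicates 1 to 3 alone (-0.39). The causes of these shifts were not tested. Depth limits the lowest genes, such as Hoxa13 at E10.0.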
